A study of Mus musculus with 6 samples.

Results

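The circadian clock genes followed here are Arntl, Clock, Npas2, Per1, Per2, Per3, Cry1, Cry2, Dbp and Ciart, 10 of the 54532 genes in the count table, chosen by name and matched to their Ensembl identifiers through GENCODE M21. Their transcripts were measured by RNA-Seq in the epididymal fat, a visceral depot, of untreated male C57BL/6J mice. A normal diet (ND, 4.5% fat) or a high-fat diet (HFD, 60% fat) was given from 4 weeks of age for 16 weeks, and 3 libraries were made per diet. The hour of dissection and the feeding state of the mice are not given in the sources used here, and neither is whether each library came from a mouse of its own, so p-values measure only the spread between these libraries. All 10 genes passed the filter on low counts.

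The clock is a loop of transcription and repression that runs in nearly every cell, adipocytes included. The proteins of Arntl (also called Bmal1) and of Clock or its relative Npas2 pair on E-box elements and switch on the Per and Cry genes, whose proteins return to the nucleus and silence that pair. Dbp, an output factor that binds D-box elements, and Ciart, a repressor of the Arntl and Clock pair, are driven by the same E-boxes, while Rev-erb and ROR nuclear receptors compete at ROR elements to set the level of Arntl. Transcripts of Arntl and of the Per genes and Dbp therefore peak at different times of day in most tissues.

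The libraries held between 16996896 and 18859320 counts, at which the floor of 3 counts corresponds to 0.150 to 0.181 CPM (counts adjusted to the effective library size by the TMM method), for counting error only. Diet was tested by edgeR's quasi-likelihood test over 15751 genes, and a gene was called at a Benjamini-Hochberg adjusted p under 0.05. The third ND library stood apart, with 273 genes above 50 counts and more than 10 times any other library, against at most 4 such genes elsewhere. The motile cilium epithelium markers in the table, 5 of a list of 6, summed to 104 CPM there and to 2.43 to 3.93 CPM in the other 5 libraries. Adipocyte markers were abundant in every library, with a sum over 12 genes of 36931 to 47074 CPM on ND and 14889 to 35811 CPM on HFD, and 3 of them (Retn, Cfd and Slc2a4) fell and 1 (Lep) rose. The sum of 12 macrophage markers was 1427 to 1537 CPM on ND and 3243 to 7581 CPM on HFD, and 7 rose and 0 fell by edgeR (8 at an unadjusted p under 0.05). Without any 1 of the ND libraries or the first HFD library, 0 adipocyte markers and 3 or 4 macrophage markers passed. The third HFD library held the lowest adipocyte sum and the highest macrophage sum. In bulk tissue fewer cells of a type and less RNA per cell cannot be told apart, and the part of these shifts in the clock gene values was not tested.

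The upstream sequences of 3 members are shown because they hold matches to E-box or D-box letters, whose relation to transcript levels was not tested. They come from RefSeq (GRCm38.p6), run 5′ to 3′ on the strand of the gene, and leave out bases that GENCODE M21 annotates as exon. Capitals mark an E-box (CACGTG) or a D-box (TTATGNAA). The Per1 stretch is intronic to a longer Per1 transcript, the Per3 stretch lies in the span of Camta1 and the Ciart stretch in that of C920021L13Rik.
Per1, chr11:69098699-69098947, plus strand: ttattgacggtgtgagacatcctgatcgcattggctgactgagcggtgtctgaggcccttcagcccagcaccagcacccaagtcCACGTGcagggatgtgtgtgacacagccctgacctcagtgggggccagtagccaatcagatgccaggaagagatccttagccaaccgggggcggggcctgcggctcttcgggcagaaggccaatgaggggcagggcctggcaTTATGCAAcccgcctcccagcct
Per3, chr4:151044666-151044915, minus strand: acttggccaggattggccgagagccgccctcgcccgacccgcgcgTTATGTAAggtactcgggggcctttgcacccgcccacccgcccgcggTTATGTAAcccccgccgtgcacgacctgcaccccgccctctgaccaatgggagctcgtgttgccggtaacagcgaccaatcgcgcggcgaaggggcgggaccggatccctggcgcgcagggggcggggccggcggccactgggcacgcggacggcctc
Ciart, chr3:95882252-95882478, minus strand: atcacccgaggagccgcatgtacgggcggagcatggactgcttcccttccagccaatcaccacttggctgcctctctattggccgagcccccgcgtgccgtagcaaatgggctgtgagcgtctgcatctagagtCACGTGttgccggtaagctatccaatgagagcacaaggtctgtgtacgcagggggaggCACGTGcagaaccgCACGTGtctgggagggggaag

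Counted from the RefSeq start site, Per1 had an E-box at position -166 and a D-box at -24, Per3 had no E-box match and a pair of D-boxes at -205 and -158, and Ciart had 3 E-boxes at -116, -58 and -44. Cry1 had 1 E-box at -60. Arntl held 1 ROR element (TAGGTCA or TGGGTCA) at position 30 after its start site, printed here as the 30 bases around it with the element in capitals.
Arntl, chr7:113207530-113207559, plus strand: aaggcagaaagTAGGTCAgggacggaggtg
In all, 9 of the 10 members had an entry, in 13 windows that ran from 250 bases before to 50 after a start. Both strands were searched for the 4 motifs, and no member matches overlap. Of all 32851 windows in the table, 7.15% held an E-box, 0.088% at least 3 of them, 3.385% a D-box, 0.161% at least 2 D-boxes and 6.453% a ROR element. The cAMP response element TGACGTCA was in 1.79% of all windows and in 0 member windows. A match is a description of the letters, and binding was not measured.

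**Figure D1:**
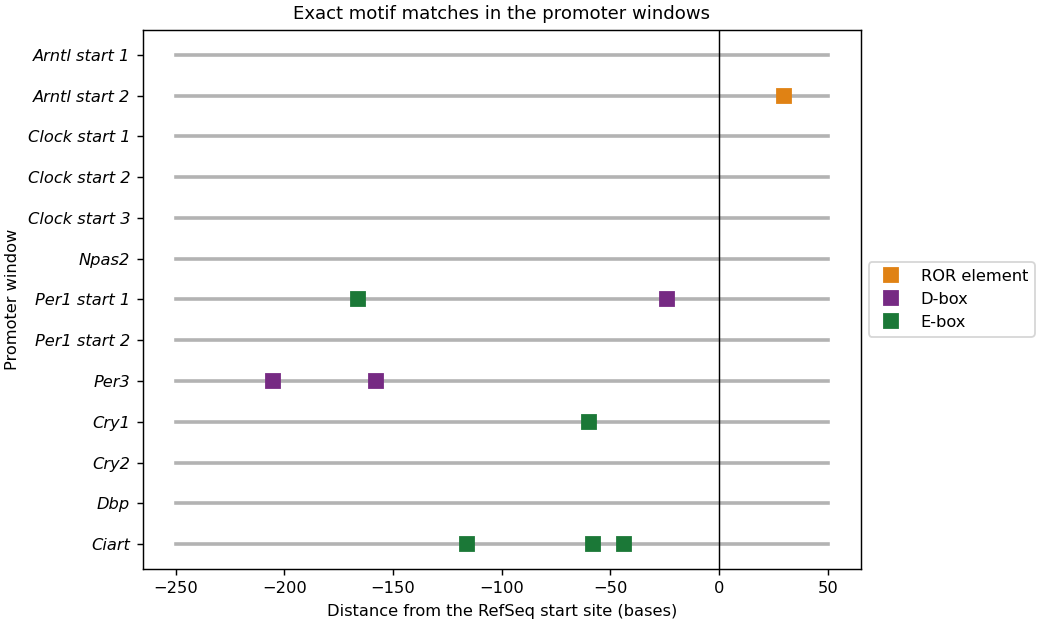
Motif matches in the 13 RefSeq windows of 9 clock genes, plotted as distance from the start site in bases, with 1 line per start site and 1 marker per match. Ciart carries 3 E-boxes, Per3 a pair of D-boxes and Per1 one of each, while the windows of Npas2, Cry2, Clock and Dbp hold no match.

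Of the 10 clock genes, 1 differed between the diets, Per1, which was higher on HFD. That is 10% of the members, against 15.9% of all genes tested that were called in either direction and 9.85% that were called higher. No member was called lower by edgeR, DESeq2 or limma-voom, where 6.04% of all genes tested were called lower by edgeR. At an unadjusted p under 0.05 there were 2 members (Per1 and Per3), and 34.0% of all genes tested. The log2 fold change (HFD against ND) was above 0 for 3 members and below 0 for 7, with a median of -0.14 beside 0.0074 over all genes tested. In 2 members, Per1 and Per3, the CPM of the diets did not overlap, which held for 40.9% of all genes tested.

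**Figure D2:**
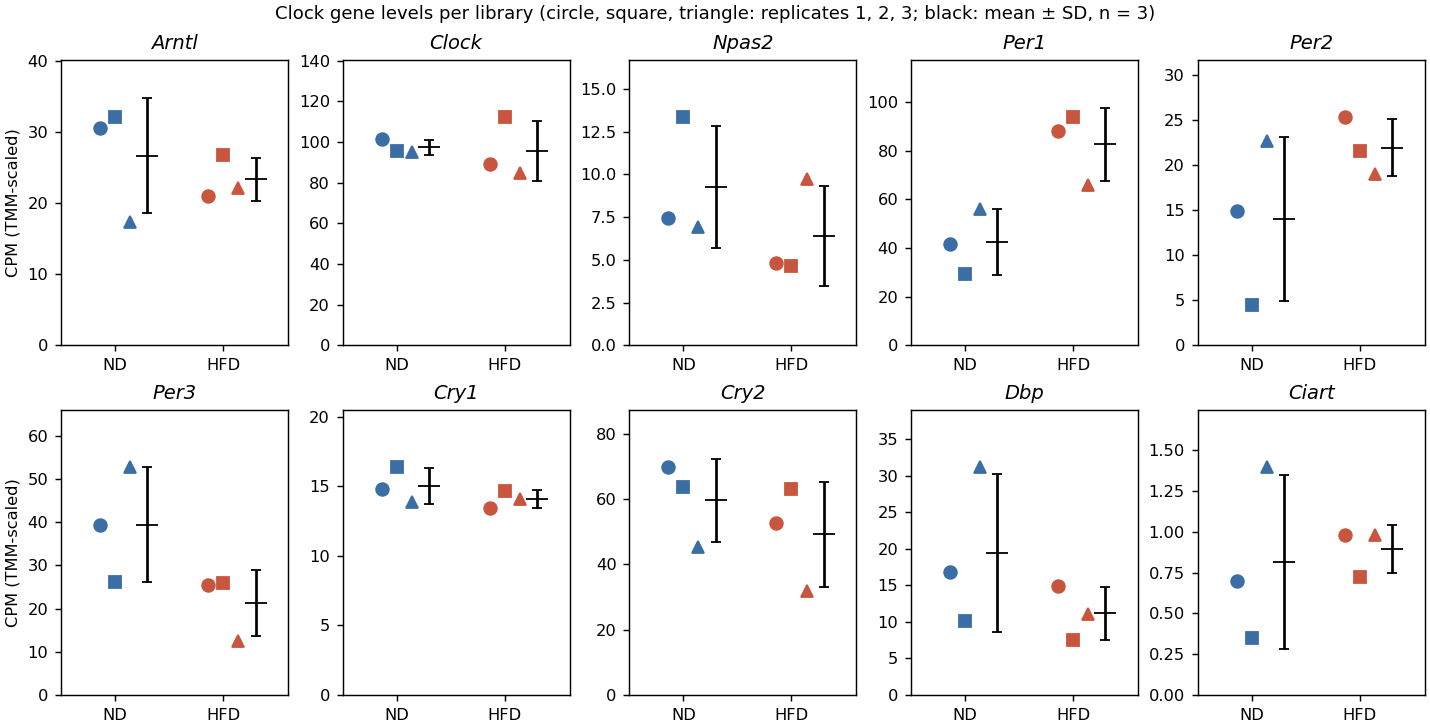
CPM of the 10 clock genes in each of the 3 ND and 3 HFD libraries, 1 panel per gene with its own axis from 0. Circles, squares and triangles are replicates 1, 2 and 3, and black bars mark the mean ± SD. The diets separate in the panels of Per1 (HFD above ND) and Per3 (HFD below ND) and overlap in the other 8.

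Per1 encodes the period repressor whose gene also responds quickly to hormonal and cAMP signals (ENSMUSG00000020893, chromosome 11 from 69095217 to 69109960 of GRCm38). It measured 41.7, 29.1 and 56.1 CPM under ND against 88.2, 93.7 and 65.7 CPM under HFD. Every HFD library was above every ND library, although the third ND and the third HFD library were close to each other. The means were 42.3 ± 13.5 and 82.5 ± 14.9 CPM (SD, n = 3 each), a 1.95-fold difference with a log2 fold change of 0.96 (SE 0.25, 95% interval 0.37 to 1.56, edgeR adjusted p = 0.0433). The call lies near the threshold. It was lost without the first ND (adjusted p = 0.134), second ND (0.0961), first HFD (0.153) or second HFD library (0.0613) and kept without the third ND (0.0470) or the third HFD library (0.0329), with a log2 fold change between 0.76 and 1.19.

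Per3, the period gene least needed for rhythm in mice (ENSMUSG00000028957, chromosome 4 from 151003652 to 151044665), measured 39.3, 26.2 and 52.8 CPM under ND against 25.4, 25.8 and 12.4 CPM under HFD. The HFD values lay below the ND values, but the second ND library was only just above the first and second HFD libraries. The log2 fold change was -0.90 (SE 0.34, 95% interval -1.70 to -0.09), and Per3 did not pass the test (edgeR adjusted p = 0.116). It passed in 0 of 17 alternative fits, whose adjusted p ran from 0.0514 to 0.279. The lowest value was that of the third HFD library, the one with the fewest adipocyte marker counts.

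Per2, the partner of the cryptochromes that carries much of the repression (ENSMUSG00000055866, chromosome 1 from 91415982 to 91459324), measured 15.0, 4.52 and 22.7 CPM under ND against 25.4, 21.6 and 19.0 CPM under HFD. The third ND library lay among the HFD values, and the second ND library was far below the rest. The log2 fold change of 0.64 had an interval of -0.51 to 1.79 (edgeR adjusted p = 0.397), so a difference of either sign was within the error.

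Among the activators, Arntl, the partner that every form of the complex needs (ENSMUSG00000055116, chromosome 7 from 113207465 to 113314126), measured 30.5, 32.1 and 17.3 CPM under ND against 21.0, 26.8 and 22.2 CPM under HFD. The HFD values fell inside the ND range, with a log2 fold change of -0.19 (95% interval -0.76 to 0.38, edgeR adjusted p = 0.615). Clock (ENSMUSG00000029238, chromosome 5 from 76209868 to 76304792) varied little, from 94.9 to 101.6 CPM under ND and 84.7 to 112 CPM under HFD. Its log2 fold change was -0.03, with an interval of -0.35 to 0.29 that bounds any difference more tightly than for most members. Npas2, which can stand in for Clock (ENSMUSG00000026077, chromosome 1 from 39193731 to 39363236), measured 7.45, 13.3 and 6.95 CPM under ND against 4.81, 4.64 and 9.73 CPM under HFD. The first and second HFD libraries lay below every ND library, and the third lay inside the ND range. The interval of Npas2 ran from -1.44 to 0.38.

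Of the cryptochromes, which hold the activators in check, neither passed the test. Cry1 (ENSMUSG00000020038, chromosome 10 from 85131700 to 85185064) ran from 13.8 to 16.4 CPM under ND and 13.4 to 14.7 CPM under HFD, with a log2 fold change of -0.09 (95% interval -0.42 to 0.23, edgeR adjusted p = 0.676). Cry2 (ENSMUSG00000068742, chromosome 2 from 92403646 to 92434043) measured 70.0, 63.6 and 45.2 CPM under ND against 52.6, 63.2 and 31.8 CPM under HFD. The third library was the lowest of each diet, and the log2 fold change was -0.28 (interval -0.92 to 0.36, edgeR adjusted p = 0.511).

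Dbp (ENSMUSG00000059824, chromosome 7 from 45705088 to 45710203), the output factor, measured 16.8, 10.1 and 31.2 CPM under ND against 14.9, 7.53 and 11.1 CPM under HFD. The values of the diets overlapped, with the third ND library far above the rest, and the log2 fold change was -0.79 (95% interval -1.80 to 0.21, edgeR adjusted p = 0.236). The exons of Dbp share 539 bases, 18.0% of their length, with Sphk2 on the opposite strand, which had 527 to 821 counts per library, and the labels do not say that the counting used strand. Cry2 shares 4.67% of its exon length with D930015M05Rik and Arntl 0.439% with Gm45355, which had at most 13 and 1 counts, and the other 7 members share none. Ciart (ENSMUSG00000038550, chromosome 3 from 95878503 to 95882251) was covered by only 13, 6 and 28 reads under ND against 18, 12 and 17 under HFD, so that its interval of -1.11 to 1.35 allows changes of more than 2-fold in either direction.

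Levels between genes were compared per length, on the authors' FPKM. On ND the order of the means was Cry2 (9.58 FPKM), Per1 (7.61), Clock (7.20), Dbp (6.54), Cry1 (4.56), Per3 (4.16), Arntl (3.60), Per2 (2.43), Npas2 (1.96) and Ciart (0.365). Each neighbour in that order overlapped the next over the 3 libraries except Npas2 and Ciart. On HFD it was Per1 (14.7), Cry2 (7.82), Clock (6.98), Cry1 (4.23), Per2 (3.77), Dbp (3.75), Arntl (3.11), Per3 (2.22), Npas2 (1.34) and Ciart (0.397). There Per1 stood clear of Cry2, Clock of Cry1, Arntl of Per3 and Npas2 of Ciart, and the remaining neighbours overlapped.

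The clearest pattern among the members was the balance of Per1 and Per3, which was noticed in these data and is given as a description. The ratio of Per1 to Per3 FPKM equalled 1.81, 1.90 and 1.81 under ND against 5.94, 6.19 and 9.01 under HFD. It was nearly the same in all 3 ND libraries, although each of the genes varied about 2-fold among them, and it was 3.76-fold higher on HFD. This pair had the largest difference of the 45 pairs of members. Its steadiness on ND was not compared with that of all pairs of tested genes. On the log2 scale the difference was 1.91, with SDs of 0.0396 on ND and 0.331 on HFD, and it stayed between 1.72 and 2.02 when any 1 library was left out. The two-sided exact permutation test gave p = 0.1, the smallest that 3 libraries against 3 allow, and 0.5 after adjustment over the 45 pairs of members. The ratio of Per2 to Per3 equalled 0.624, 0.284 and 0.705 under ND against 1.64, 1.37 and 2.51 under HFD.

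Some ratios with Dbp separated the diets as well, namely those of Per1, Per2 and Ciart. The ratios of Arntl, Clock, Npas2, Per3, Cry1 and Cry2 to Dbp overlapped between the diets. Per1 to Dbp equalled 1.32, 1.53 and 0.955 under ND against 3.15, 6.62 and 3.14 under HFD, and Per2 to Dbp equalled 0.455, 0.229 and 0.371 under ND against 0.872, 1.46 and 0.874 under HFD. Of the 45 pairs, 9 did not overlap between the diets, 5 of them with Per1, which is 20% of the member pairs, below the 42.0% of all pairs of tested genes that separate in this way. Such separation is therefore common in these libraries and is not particular to the clock genes.

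**Figure D3:**
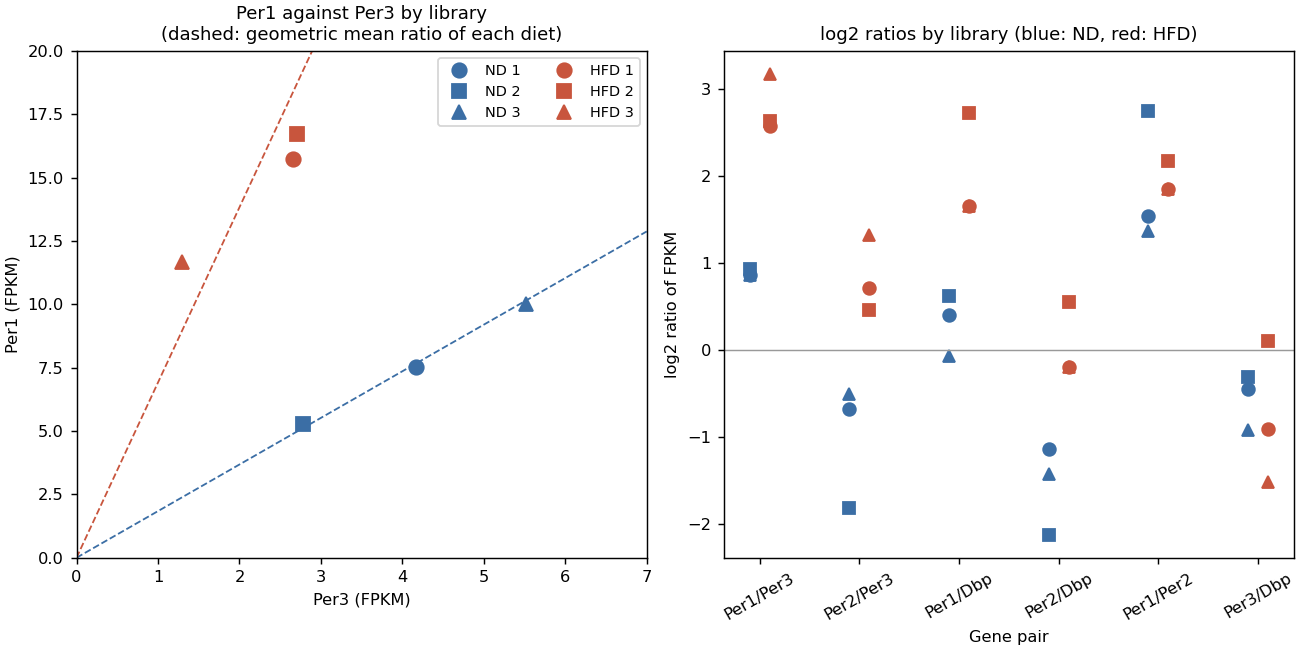
Left, Per1 against Per3 in FPKM with 1 point per library (blue for ND, red for HFD, the shape giving the replicate number) and a dashed line at the geometric mean ratio of each diet, which the 3 ND libraries follow closely. Right, log2 ratios of FPKM for 6 pairs of clock genes, in which the diets separate for Per1 and Per2 over Per3 or Dbp and overlap for Per1 over Per2 and Per3 over Dbp.

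Within ND the libraries differed from one another in the clock genes. Per1, Per2, Per3, Dbp and Ciart were all highest in the third and lowest in the second ND library, an order found in 22.0% of all genes tested. Arntl, Npas2 and Cry1 were highest in the second and lowest in the third, an order found in 22.5%. These orders are the reverse of each other and the genes were grouped by them, so the opposition of the groups follows from the grouping. The 3 ND libraries carry no order of their own. The SD of log2 CPM within ND was above the median of all genes tested (0.185) for 8 of 10 members, with the largest values for Per2 (1.204), Ciart (0.963) and Dbp (0.815), and within HFD it was above the median (0.261) for 5. Per2 was 1 of 6 members that varied less on HFD, where its SD was 0.208. Of 29 tested genes of the wider clock pathway, 11 were highest in the third and lowest in the second ND library and 1 the reverse. The third ND library is also the one that held the motile cilium genes, and the part of that in these orders was not tested.

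**Figure D4:**
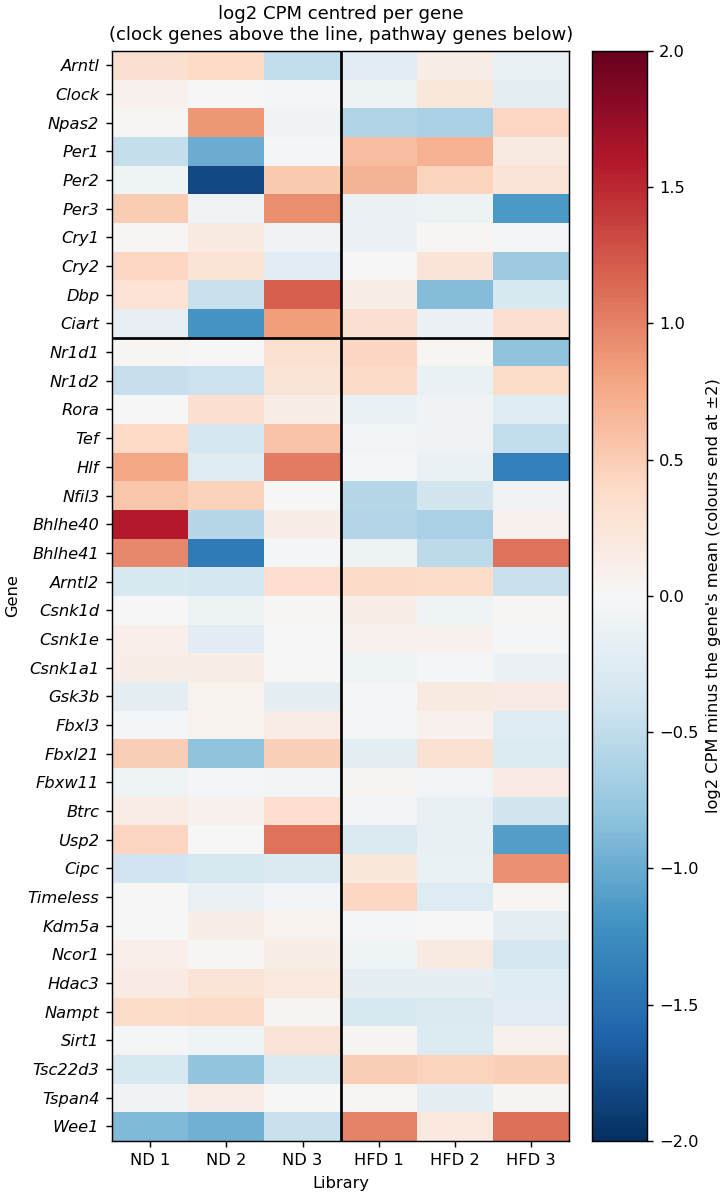
Log2 CPM of the 10 clock genes (above the line) and 28 of the tested pathway genes, centred on each gene's mean over the 6 libraries, with libraries in columns and color giving the difference from that mean, ending at ±2. The third ND library is high for Per1, Per2, Per3, Dbp and Ciart among the ND libraries and low for Arntl, Npas2 and Cry1.

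By the mean absolute difference of centred log2 CPM over the 6 libraries, the genes most like Arntl included Tmem268 (0.0930), Hfe, Cavin3 and Zfp940, and those most like Dbp were Cd209c (0.124), Pih1d2, Gm3435, Fbxl12os and Zc2hc1c. Each of these lay nearer than any member. The nearest member was Cry1 for Arntl (0.209) and Per3 for Dbp (0.447). Per2 and Ciart were at 0.337 from each other, with Ciart in place 64 among all genes ordered by likeness to Per2. In the order by likeness to Ciart, Per2 was in place 497. For the other members the nearest member lay in place 726 (for Clock) to 2824 (for Per3). With 6 libraries, likeness of this kind is a description only.

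Around the 10 members, a list of 30 further clock pathway genes was read in the same fit. Of the 29 tested, 2 rose, 3 fell and 24 did not pass, and the median log2 fold change was -0.13. The share called, 17.2%, was near the 15.9% of all genes tested. For Rora, a receptor that activates Arntl, the log2 fold change was -0.30, which did not pass (adjusted p = 0.131), and Rorb had at most 2 counts and was not tested. The Rev-erb receptors Nr1d1 and Nr1d2, which repress Arntl, had log2 fold changes of -0.15 and 0.39 and did not pass (adjusted p = 0.751 and 0.291).

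Nampt, the enzyme of NAD salvage that the clock drives, fell by 0.55 on the log2 scale (SE 0.13, edgeR adjusted p = 0.0318), and Hdac3, the deacetylase that Rev-erb recruits, fell by 0.42 (adjusted p = 0.0303). Wee1, a cell cycle kinase with E-boxes in its promoter, rose, with 157, 138 and 230 counts under ND against 567, 296 and 584 under HFD (log2 fold change 1.56, SE 0.27, adjusted p = 0.0139), and every HFD library was above every ND library. Tsc22d3, which encodes the glucocorticoid-induced leucine zipper, rose by 0.92 on the log2 scale (adjusted p = 0.0142). Relatives and rivals of Dbp at the D-box did not pass, and the log2 fold changes of all 24 uncalled pathway genes ran from -1.02 (Usp2) to 0.73 (Cipc). Tef and Hlf had log2 fold changes of -0.45 and -1.004, and the repressor Nfil3 had -0.68 (adjusted p = 0.0597). The number of pathway calls fell when some libraries were left out. Of the pathway genes, 0 rose and 1 fell without the first ND library, and 1 rose and 1 fell without the second. Without the first HFD library 0 passed. Calls over all genes, 1552 higher and 952 lower, also fell, to 337 and 155 without the first ND library. Without the first HFD library they numbered 380 higher and 94 lower. The direction of the genes named here as called was kept in all 17 alternatives. Tsc22d3 passed in 15 of these, Wee1 in 13 and Nampt and Hdac3 in 11 each.

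**Figure D5:**
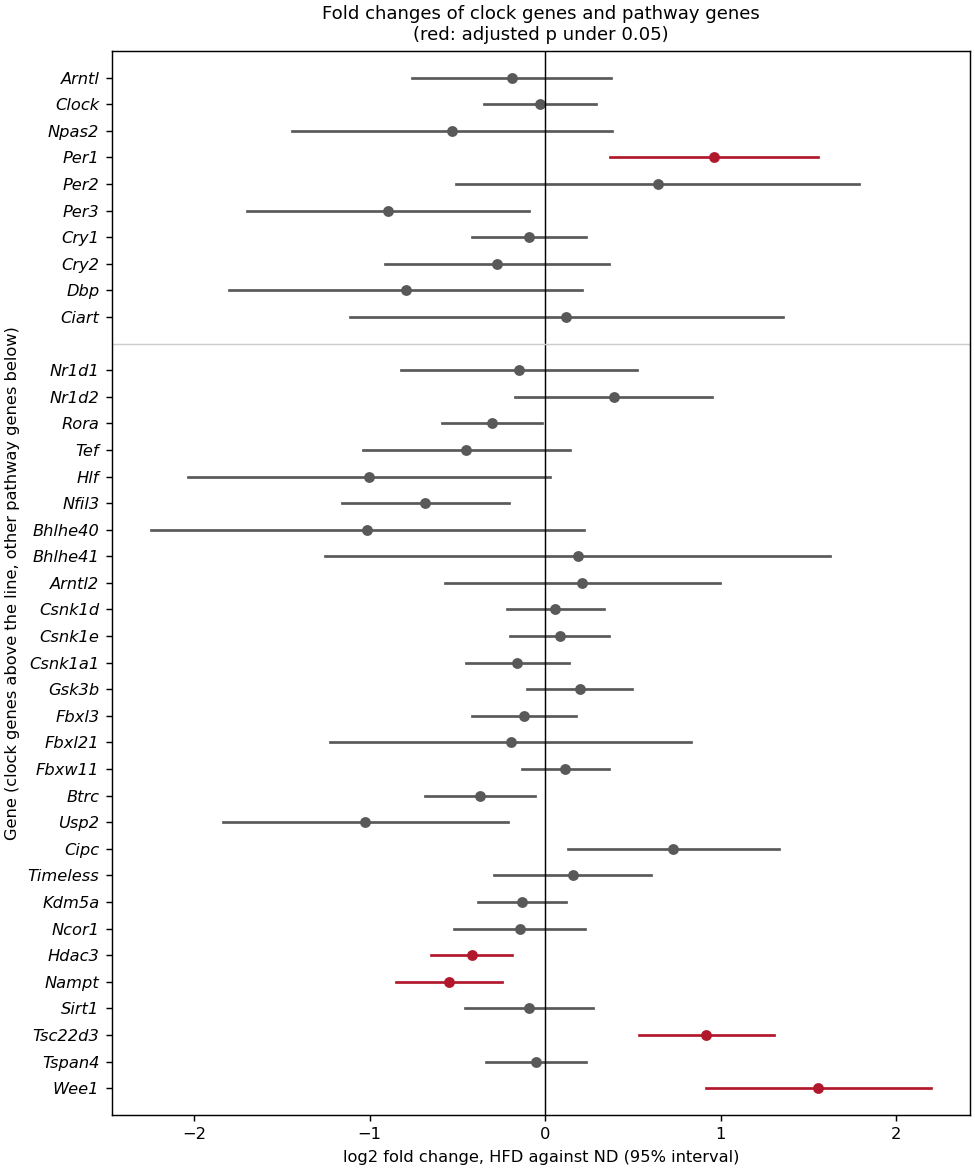
Log2 fold change (HFD against ND) with its 95% interval from edgeR for the 10 clock genes and 28 of the tested pathway genes (above and below the gray line), with called genes in red. Points are estimates and lines are intervals. Per1, Wee1 and Tsc22d3 lie to the right and Nampt and Hdac3 to the left among the called genes.

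Per1 is also a direct target of the glucocorticoid receptor, and the list of 11 glucocorticoid-responsive genes that includes it was read beside it. In that list 5 rose (Per1, Tsc22d3, Sgk1, Dusp1 and Pdk4) and 1 fell (Fkbp5), which is 54.5% called beside 15.9% of all genes tested. Per1 and Tsc22d3 were already counted above. The other 5 genes did not pass. The list was mixed, with log2 fold changes above 0 for 7 genes and below 0 for 4, from -0.95 to 1.69. The median log2 fold change was 0.79, and the summed level was 840 to 932 CPM on ND and 1187 to 1278 CPM on HFD. Pdk4, a brake on glucose oxidation, rose by 1.69 on the log2 scale and the kinase gene Sgk1 by 0.93 (edgeR adjusted p = 0.00938 for each), while Fkbp5, a chaperone of the receptor, fell by 0.88 (adjusted p = 0.0387). Without the first ND or the first HFD library 1 gene of the list rose and 0 fell, without the second ND library 3 rose and 1 fell, and Fkbp5 passed in only 7 of 17 alternatives. Hormone levels were not measured.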

How the data were processed

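RNA-Seq of epididymal fat was analysed in 3 ND and 3 HFD libraries, grouped by their labels. The authors deposited raw counts per gene and FPKM values. The study's methods name TopHat and Cufflinks on GRCm38, whereas the submitters' processing notes name HISAT2 2.0.5, featureCounts 1.5.0-p3 and DESeq2 1.20.0, so the aligner is uncertain. The deposited FPKM equal the count divided by a gene length and a library factor, checked on 11492 genes above 50 counts in every library. Names came from GENCODE M21 (54495 of 54532 identifiers found).

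Totals were 16996896 to 18859320 counts, and depth limits Ciart most. Counts were tested with edgeR 4.0.16 (R 4.3.3), using TMM factors, genes kept by filterByExpr, a robust quasi-likelihood fit and no covariate beside diet, with Benjamini-Hochberg adjustment over all genes tested and a threshold of 0.05. Standard errors were derived from the F statistic. Ratios of FPKM were compared by exact permutation tests. Other fits tried were DESeq2 1.42.0, voom in limma 3.58.1, other scalings and filters, a fit that was not robust, a block for the replicate number, limma on log2(FPKM + 1) or log2(FPKM + 0.1), with a filter of at least 0.5 FPKM in at least 3 libraries or without it, and each library left out. Leaving libraries out of the Per1 to Per3 ratio, and running the alternatives on the lists beyond the clock pathway, were chosen after seeing the data.

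All pairs of libraries differed by more than sampling noise (chi-square per gene 19.0 or more). The members and lists were chosen with earlier results of these data known. All members were named, the called pathway genes, a few uncalled pathway genes next to the members in the loop (chosen after their values were seen), and at most 4 further genes of each other list. Some results are not reported here. The methods were tested on simulated data.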

Additional observations from a re-analysis of the deposited data

How the results depend on the processing

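Over the alternatives, the member log2 fold changes kept their direction and their side of the threshold in 159 of 168 cases, weakened past the threshold in 7, all of them Per1, and reversed in 2. Ciart changed sign without the second ND library (-0.23, in a range of -0.23 to 0.72 over the libraries left out) and Clock without the third HFD library (0.0335, in a range of -0.16 to 0.0335), and neither passed the test in any of these fits. Per1 passed in 10 of 17 alternatives, with an adjusted p of 0.00450 (DESeq2) to 0.153. It did not pass with library size only (0.0697), with limma on log2(FPKM + 1) without a filter (0.107) or with the replicate number as a block (0.0906, log2 fold change 0.996). The called clock genes numbered 0 in each of those 3 fits and 0 to 1 with a library left out. Pathway genes called higher numbered 1 with limma on FPKM without a filter and 0 to 3 with a library left out, and those called lower numbered 5 by DESeq2, 1 without the filter, 1 with the replicate block and 0 to 4 with a library left out. Over all genes, limma on FPKM without a filter called 394 higher and 255 lower, DESeq2 called 1596 lower, and leaving out a library gave 337 to 2368 higher and 94 to 1572 lower. Same-numbered libraries did not deviate together (correlations of -0.0945, -0.0587 and -0.00245), so the numbers were not taken to pair the libraries, and the block is given only for completeness. Depth limits Ciart, and 3 libraries per diet limit the other members.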

Other observations

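Per1 belongs to the genes that respond quickly to stimuli, and the immediate early genes, a class of transcription factors and regulators induced within minutes, were read in the same fit. Of 14 tested, 6 rose on HFD and 0 fell by edgeR, with 8 at an unadjusted p under 0.05 and a median log2 fold change of 0.59. Of all genes tested, 9.85% were called higher and 34.0% had an unadjusted p under 0.05. Atf3 rose by 4.595 on the log2 scale, Fos by 3.33 and Egr2 by 3.17, while Egr1 had a log2 fold change of 0.23 and did not pass (adjusted p = 0.563). Atf3, Fos and Egr2 passed in all 17 alternatives, and with any 1 ND library or the first HFD library left out the count was 3. The summed level of the 14 genes was 457 to 490 CPM on ND and 685 to 1204 CPM on HFD. Among the HFD libraries the sum was 1059, 685 and 1204 CPM in turn. The 12 macrophage markers summed to 4178, 3243 and 7581 CPM. Both sums were lowest in the second and highest in the third, and the part of the macrophage markers in these values was not tested. Per1 had the reverse order there, with 88.2, 93.7 and 65.7 CPM, and its relation to the immediate early genes was not tested.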
